A study of Mus musculus with 8 samples.

Results

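C1qa, C1qb, C1qc, Apoe, Trem2, Mrc1, Folr2 and Cd163 were followed in the immune cells of beta cell grafts, as the 8 rows with these names among the 32285 genes of a single-cell count table. The grafts were NIT-1 cells, a beta cell line from a NOD mouse, either wild type (WT) or mutant for Rnls (Rnls mut). WT and Rnls mut cells were placed under the skin on opposite flanks of NOD.Cg-Prkdc scid/J mice. These mice carry the scid allele of Prkdc and lack T and B cells of their own but keep their own macrophages. All of them were then given autoreactive splenocytes, and living CD45+ cells of the grafts were sorted at day 10 or day 17 after this transfer. The age of the mice was not given in the sources used here, and macrophages of the host and of the donor spleen were not told apart. Each genotype was sampled at each day as 4 grafts, marked by hashtag antibodies within 1 library, which gave 16 grafts in 4 libraries. Library and group therefore cannot be told apart. Rnls itself was not analysed here.

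The table held 22441 cells in 12 cell types and 29 clusters named by the authors, of which 7179 cells were macrophages (107 to 1178 per graft). Between 859531 and 7661672 unique molecular identifiers (UMIs, each marking 1 captured transcript) were counted in the macrophages of a graft. Only 42 of 22399 barcodes occurred in 2 libraries. Median UMIs per macrophage were lower in Rnls mut grafts at day 17 (3276 to 3830.5 per graft) than in WT grafts at day 17 (6771.5 to 8049), WT grafts at day 10 (5300 to 6315.5) and Rnls mut grafts at day 10 (5285.5 to 6341). All 10 macrophage markers, Adgre1, Csf1r and Mertk among them, were found in the macrophages of every graft, and summed to 12025 to 24766 CPM (UMIs per graft and cell type scaled to a common total, the unit of all levels below). T cell markers summed to 8.09 to 27.1, B cell markers to 1.16 to 17.9 and beta cell markers to 0 to 1.07 CPM in the same cells, with Ins1 at 0 in all 16 grafts. Dendritic cell markers summed to 54.4 to 185, granulocyte markers to 53.2 to 103 and stromal and endothelial markers to 19.1 to 68.2 CPM. Pooled over grafts, Lyz2 made up 13839 of the 20006 CPM of the macrophage markers. Monocytes had 13186 CPM of this list.

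C1qa, C1qb and C1qc code for the 3 chains of C1q, the recognition molecule that starts the classical complement pathway and helps phagocytes clear dying cells. Apoe is a lipid carrier, and Trem2 is a receptor for lipids and lipoproteins on macrophages and microglia. Mrc1 (CD206, a mannose receptor), Folr2 (a folate receptor) and Cd163 (the hemoglobin-haptoglobin scavenger receptor) are widely used as markers of tissue-resident macrophages.

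In GRCm38, the 3 C1q genes lie on the minus strand of chromosome 4 within 18675 bases, in the order C1qb (chr4:136880129-136886187), C1qc (chr4:136889804-136893065) and C1qa (chr4:136895917-136898803). The gaps are 3616 bases between C1qb and C1qc and 2851 bases between C1qc and C1qa. Apoe is at chr7:19696109-19699188 (minus), Trem2 at chr17:48346401-48354147 (plus), Mrc1 at chr2:14229392-14332057 (plus), Folr2 at chr7:101839988-101857194 (minus) and Cd163 at chr6:124304656-124330527 (plus). RefSeq promoter windows of GRCm38.p6 were matched for 7 of the 8 genes. The bases upstream of the first exon of 4 of them are shown because they cover both C1q genes with a window and the 2 genes (Trem2 and Mrc1) whose level did not overlap between days in either genotype. Capitals mark GAGGAA, the core of sites bound by the myeloid factor PU.1, or its reverse complement TTCCTC.
C1qb, chr4:136886201-136886450, minus: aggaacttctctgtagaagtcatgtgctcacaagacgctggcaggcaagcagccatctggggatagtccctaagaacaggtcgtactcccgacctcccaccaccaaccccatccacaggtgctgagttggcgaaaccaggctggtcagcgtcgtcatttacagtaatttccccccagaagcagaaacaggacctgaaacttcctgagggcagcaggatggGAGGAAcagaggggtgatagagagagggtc
C1qc, chr4:136893066-136893164, minus: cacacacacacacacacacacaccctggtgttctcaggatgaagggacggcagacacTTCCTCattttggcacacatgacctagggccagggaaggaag
Trem2, chr17:48346151-48346400, plus: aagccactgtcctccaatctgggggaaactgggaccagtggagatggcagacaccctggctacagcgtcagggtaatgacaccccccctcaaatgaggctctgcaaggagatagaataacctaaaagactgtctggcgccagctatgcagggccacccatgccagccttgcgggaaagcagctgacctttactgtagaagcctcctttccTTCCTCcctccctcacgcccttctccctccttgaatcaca
Mrc1, chr2:14229164-14229391, plus: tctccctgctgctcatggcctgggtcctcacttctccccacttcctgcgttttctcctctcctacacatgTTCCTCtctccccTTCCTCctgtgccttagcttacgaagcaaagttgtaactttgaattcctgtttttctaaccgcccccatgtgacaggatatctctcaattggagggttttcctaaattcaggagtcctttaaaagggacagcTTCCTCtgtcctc
The letters were found 1 time each before C1qb, C1qc and Trem2 and 3 times before Mrc1, on either strand. They also occurred in 2 of the 3 Apoe windows and in no window of Folr2 or Cd163. Of all 32851 promoter windows in the table, 23.3% held them, so that a match is common and is given only as a description of these stretches. TGCTGAC, part of the MAF site, was in no window of these genes (3.81% of all windows), and TATAAA was in 1 Apoe window (12.4% of all windows).

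The expression of all 8 genes was concentrated in macrophages. These cells held 97.2% of the C1qa, 96.5% of the C1qb, 96.8% of the C1qc and 98.3% of the Apoe UMIs in the table. The share was 94.1% for Trem2, 95.9% for Mrc1, 91.9% for Folr2 and 97.7% for Cd163. Since cell types were assigned from the same counts, the levels by cell type are a description without a test. As 3' ends were counted, CPM do not grow with transcript length and are set side by side between genes on that scale.

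Apoe had the highest level in macrophages pooled over all grafts, with 2782 CPM. C1qa followed at 2072, C1qb at 1465, C1qc at 1031 and Mrc1 at 775. Folr2 (203), Trem2 (128) and Cd163 (25.8) were lower. The order C1qa, C1qb, C1qc held in every graft, whereas the position of Apoe did not, since its level ranged from 212 to 10334 and overlapped those of all 3 C1q genes. Folr2 and Trem2 also overlapped between grafts.

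Monocytes, the blood-derived relatives of macrophages, came next for all of the genes but Apoe and Cd163. Their pooled levels were 109 for C1qa, 101 for C1qb, 67.5 for C1qc, 41.1 for Apoe, 88.3 for Mrc1, 41.9 for Folr2, 21.7 for Trem2 and 0.4 CPM for Cd163. Macrophages were higher than monocytes in 15 of 15 grafts with enough of both cells for the C1q genes, Apoe, Trem2 and Cd163 and in 14 of 15 for Mrc1 and Folr2. The median ratio within a graft was 25.7 for C1qa, 27.3 for Apoe, 6.29 for Mrc1, 6.83 for Folr2 and 3.15 for Trem2. Dendritic cells had 22.2 CPM of Mrc1 and 11.8 of C1qa. Among rare types, the 13 mast cells held 33 Apoe UMIs (847 CPM) and none of the other 7 genes.

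**Figure D1:**
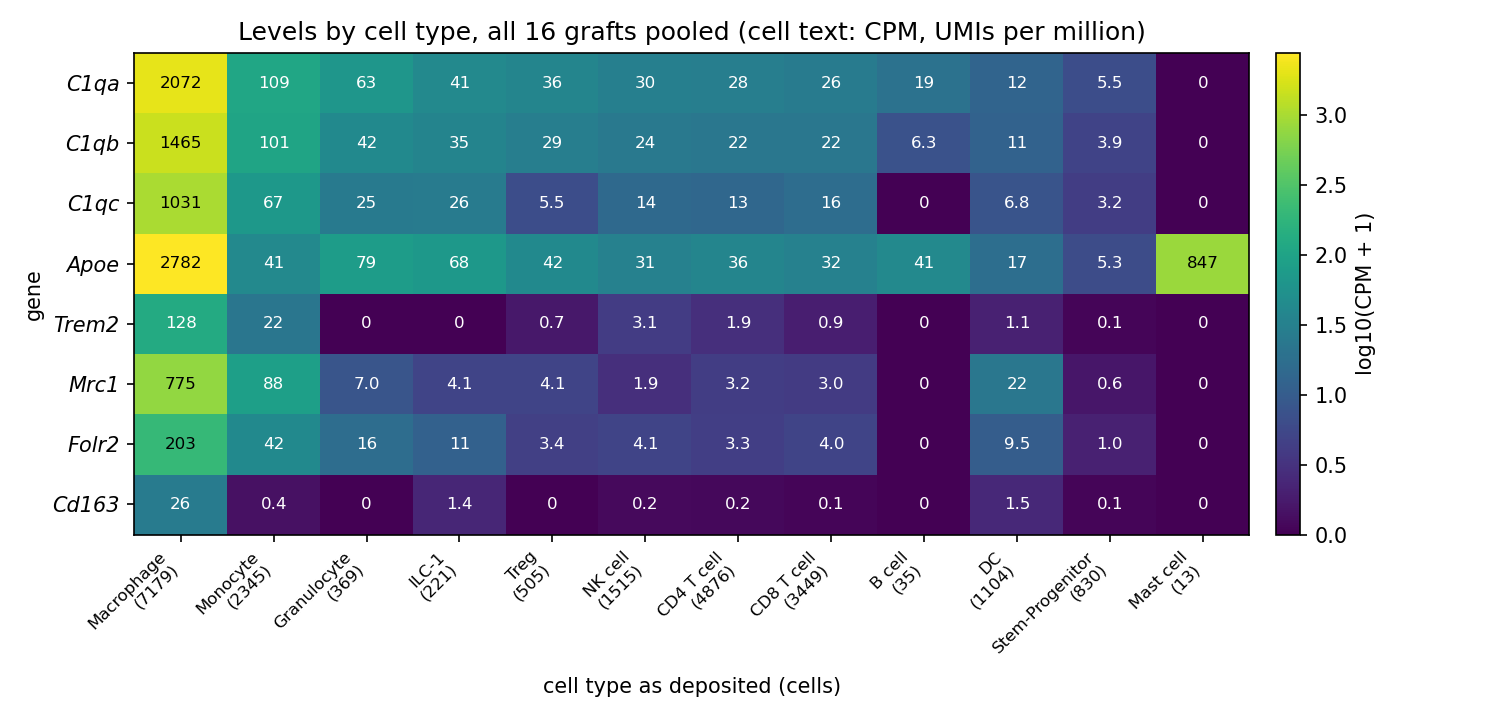
Level of the 8 genes (rows) in the 12 deposited cell types (columns, with their number of cells), pooled over the 16 grafts, as CPM written in each field and as log10(CPM + 1) by colour. The macrophage column holds the highest value of every gene, from 25.8 CPM for Cd163 to 2782 for Apoe.

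The share of cells with at least 1 UMI gave the same picture. C1qa was found in 66.1% of macrophages, 10.7% of monocytes and 6.61% of CD8 T cells, which are not expected to make C1q, at median depths of 4719, 4530 and 2555 UMIs per cell. C1qb was found in 63.7% of macrophages against 5.68% of CD8 T cells, and C1qc in 63.4% against 3.91%. Apoe was found in 58.7% of macrophages and 6.84% of CD8 T cells, and in 9.08% of monocytes. The background was lower for Mrc1 (68.0% of macrophages, 18.4% of monocytes, 0.841% of CD8 T cells) and Trem2 (33.1%, 7.93% and 0.261%). Folr2 was found in 37.6% of macrophages, 4.52% of monocytes and 1.13% of CD8 T cells, and Cd163 in 4.32%, 0.213% and 0.0290%. Cells with a Cd163 UMI were thus a small part of the macrophages, although the T cell background of this gene was the lowest of the 8.

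The 3 C1q chains were counted in a nearly fixed ratio. Of the C1q UMIs in macrophages, 45.4% were C1qa, 32.1% C1qb and 22.6% C1qc, and the shares of single grafts ranged from 42.6 to 48.7%, 29.5 to 34.5% and 20.5 to 24.6%. The ranges of the 3 chains did not overlap. Pooled C1q UMIs had like shares in CD4 T cells (44.5%, 34.9% and 20.6%), CD8 T cells (40.9%, 34.5% and 24.6%) and monocytes (39.2%, 36.4% and 24.4%). In single grafts the shares of monocytes overlapped between chains (30.4 to 43.7%, 31.5 to 41.8% and 20.8 to 34.4%). The 102 C1q UMIs of regulatory T cells had shares of 51.0%, 41.2% and 7.84%.

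The first question was how the genes changed in macrophages between day 10 and day 17, a time in which macrophages went from 17.0% to 48.9% of the CD45+ cells of WT grafts and from 15.9% to 61.1% of those of Rnls mut grafts (means of 4 grafts). Mrc1, Trem2 and Apoe rose in both genotypes, Cd163 rose in Rnls mut grafts, and the C1q genes and Folr2 did not pass the test in either. A fit to all macrophages does not tell a change of level from a change in the mix of macrophage clusters. Levels are given per graft in the order of grafts 1 to 4, and fold changes are from an edgeR quasi-likelihood fit to the UMIs of all macrophages of a graft, with p-values adjusted over all 9331 genes tested.

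Among the complement genes, C1qa was at 1840, 1361, 2387 and 1837 CPM in WT grafts at day 10 and at 2967, 3574, 1562 and 1933 at day 17. The Rnls mut grafts had 1011, 2932, 720 and 1330 at day 10 and 1763, 2769, 2875 and 3749 at day 17. The groups overlapped in both genotypes, and graft 2 at day 10 was the highest of its group by far. The log2 fold change of C1qa was 0.27 ± 0.35 (SE, n = 4 and 4; edgeR adjusted p = 0.626) in WT grafts and 0.77 ± 0.36 (adjusted p = 0.0909) in Rnls mut grafts. C1qb went from 1341 ± 410 (SD, n = 4) to 1799 ± 693 in WT grafts and from 1075 ± 698 to 1963 ± 681 in Rnls mut grafts (log2 fold change 0.26 ± 0.37 and 0.74 ± 0.37, edgeR adjusted p = 0.656 and 0.119). C1qc went from 908 ± 257 to 1181 ± 357 and from 714 ± 447 to 1387 ± 372 (0.21 ± 0.33 and 0.83 ± 0.33, edgeR adjusted p = 0.685 and 0.0538). Approximate 95% intervals, here and below, reach 2 SE to either side. In Rnls mut grafts they ran from 0.06 to 1.48 for C1qa, from -0.002 to 1.49 for C1qb and from 0.16 to 1.49 for C1qc. Without graft 2 of the Rnls mut grafts at day 10, all 3 passed the test (1.33, 1.30 and 1.36, edgeR adjusted p = 0.00237, 0.00462 and 0.000967), and so did Folr2 (1.75, adjusted p = 0.00987). C1qc also passed without graft 1 of the Rnls mut grafts at day 17 (adjusted p = 0.0343).

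Apoe, the lipid carrier, spread widely between the grafts of a group. In WT grafts it was at 1044, 307, 2269 and 657 CPM at day 10 and at 7128, 8675, 1088 and 2988 at day 17. Graft 3 at day 17 lay within the range of day 10, and 15 of the 16 pairs of grafts were higher at day 17. Apoe in Rnls mut grafts was at 272, 1382, 212 and 609 at day 10 and at 2147, 5421, 5769 and 10334 at day 17, with no overlap. The mean was 4.65 times that of day 10 in WT grafts and 9.57 times in Rnls mut grafts. It rose by a log2 fold change of 2.06 ± 0.70 (SE, edgeR adjusted p = 0.0377, approximate 95% interval 0.67 to 3.45) and 3.14 ± 0.73 (adjusted p = 0.00244, 1.68 to 4.59). The call in WT grafts was lost without graft 1, 2 or 4 at day 10 (edgeR adjusted p = 0.0843, 0.105 and 0.0957) or graft 1 or 2 at day 17 (0.0906 and 0.0981). The call in Rnls mut grafts held without each graft in turn. Relative to the sum of the 3 C1q chains, Apoe went from 0.235 ± 0.134 (SD, n = 4) to 0.811 ± 0.384 UMIs per C1q UMI in WT grafts and from 0.170 ± 0.054 to 0.902 ± 0.274 in Rnls mut grafts.

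Trem2, the lipid receptor, was at 84.4, 28.9, 68.4 and 21.8 CPM in WT grafts at day 10 and at 116, 200, 155 and 130 at day 17. The level in Rnls mut grafts was 78.0, 62.4, 33.7 and 36.0 at day 10 and 114, 296, 165 and 184 at day 17. The days did not overlap in either genotype. Trem2 rose by a log2 fold change of 1.35 ± 0.37 (SE; edgeR adjusted p = 0.0133) in WT grafts and 1.67 ± 0.37 (adjusted p = 0.00185) in Rnls mut grafts.

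Of the resident macrophage receptors, Mrc1 rose in both genotypes. It was at 271, 215, 398 and 348 CPM in WT grafts at day 10 and at 1298, 1426, 887 and 783 at day 17. The Rnls mut grafts had 84.9, 416, 122 and 207 at day 10 and 1073, 1108, 1204 and 1263 at day 17. Every graft at day 17 was above every graft at day 10 of its genotype. The log2 fold change of Mrc1 was 1.66 ± 0.35 (SE; edgeR adjusted p = 0.00241) in WT grafts and 2.35 ± 0.36 (adjusted p = 8.55e-05) in Rnls mut grafts, and the means were 3.56 and 5.60 times those of day 10.

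Folr2, the folate receptor, was at 201, 121, 239 and 224 CPM in WT grafts at day 10 and at 372, 488, 185 and 155 at day 17. For Rnls mut grafts the values were 58.9, 307, 19.8 and 122, and then 149, 225, 221 and 408. The days overlapped in both genotypes. Its log2 fold changes were 0.43 ± 0.53 and 0.81 ± 0.53 (edgeR adjusted p = 0.599 and 0.236).

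Cd163, the hemoglobin scavenger receptor, was the least abundant. WT grafts had 19.1, 33.4, 25.2 and 20.4 CPM at day 10 and 51.0, 164, 12.3 and 23.9 at day 17, with graft 2 at day 17 far above the others and overlap between the days. Rnls mut grafts had 1.22, 13.6, 2.33 and 3.52 at day 10, which are 3, 26, 2 and 4 UMIs, and 12.2, 28.3, 55.5 and 58.0 at day 17. Graft 1 at day 17 lay under graft 2 at day 10. The log2 fold change of Cd163 was 0.98 ± 0.68 (SE; edgeR adjusted p = 0.308) in WT and 2.58 ± 0.87 (adjusted p = 0.0240) in Rnls mut grafts. The latter call was lost without graft 1, 3 or 4 at day 10 (adjusted p = 0.0923, 0.0512 and 0.0551) or graft 3 at day 17 (0.0635).

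**Figure D2:**
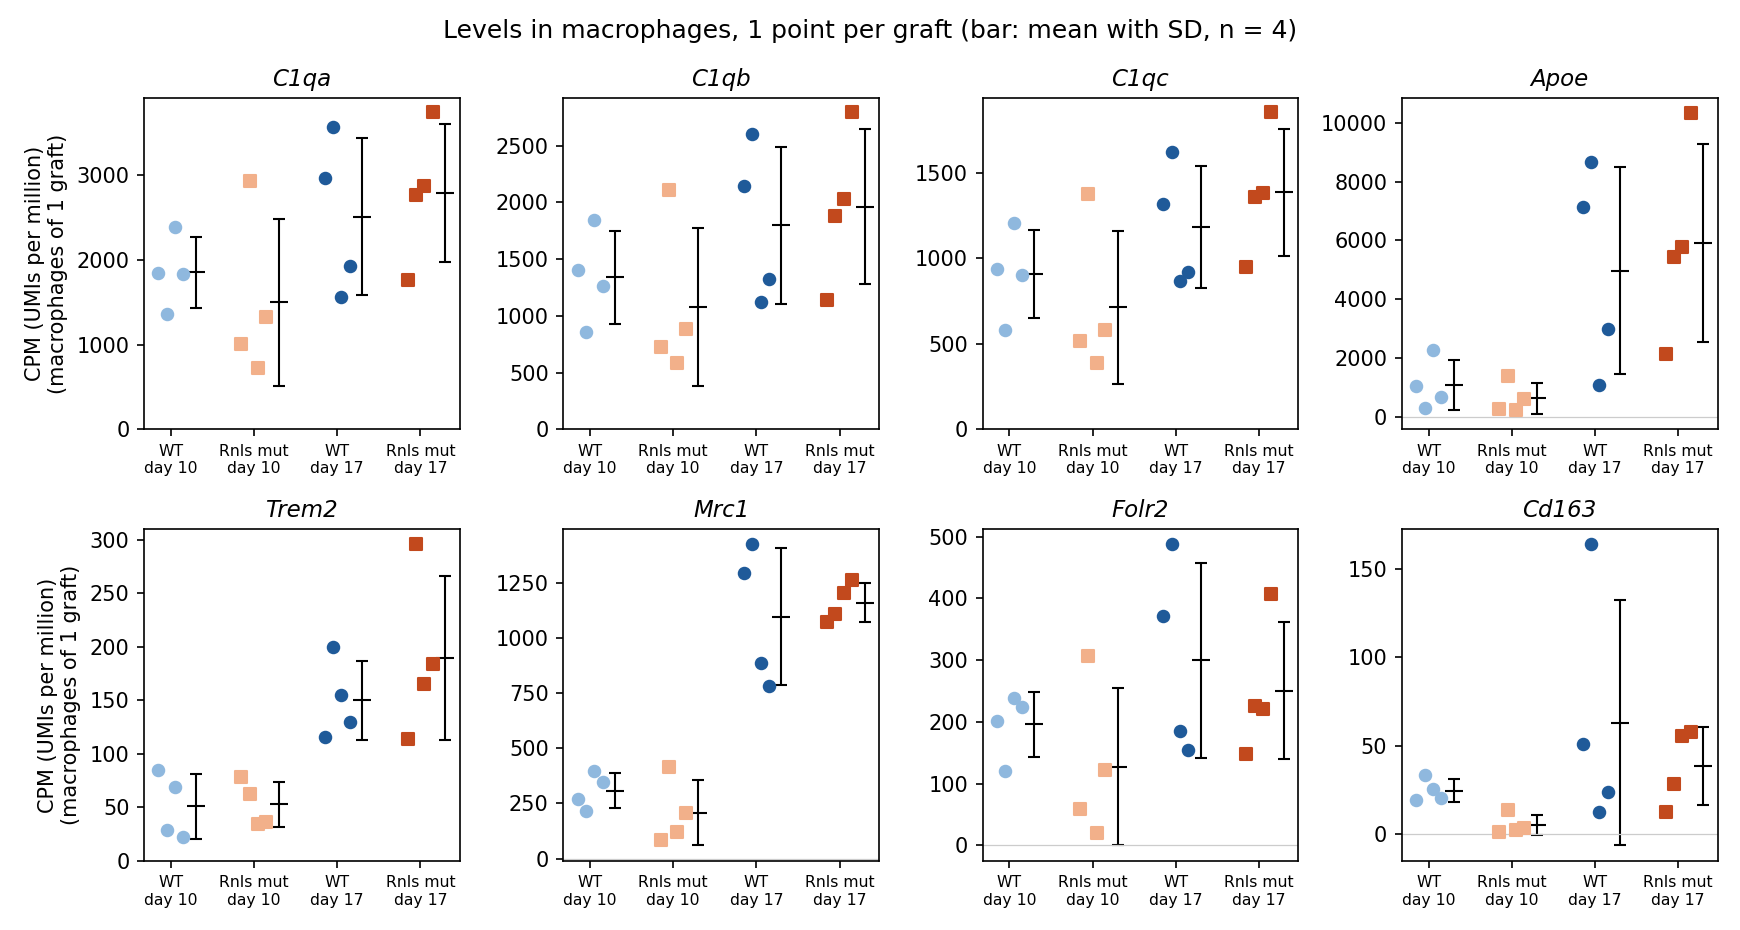
Level of each gene in the macrophages of single grafts (CPM, linear axes that differ between genes), by genotype and day, with points for grafts (n = 4 per group) and the mean with its SD beside them. Mrc1 and Trem2 show no overlap between the days in either genotype, while C1qa, C1qb, C1qc and Folr2 overlap.

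In WT grafts, 3 of the 8 genes passed the test, all higher at day 17, where 12.0% of all genes tested were called higher and 13.1% lower. Of the 8 genes, 4 were higher in Rnls mut grafts, where 20.7% of all genes were called higher and 21.4% lower. The split of calls over all genes depended on the scaling. With library size alone in place of TMM, 2024 genes were called higher and 706 lower of 9331 in WT grafts, and 2462 higher and 1435 lower in Rnls mut grafts. The median log2 fold change of all genes then moved from 0.03 to 0.21 in WT and from 0.02 to 0.15 in Rnls mut grafts. Under that scaling 3 and 5 of the 8 genes passed, all higher, with C1qc added in Rnls mut grafts (0.95, edgeR adjusted p = 0.0278). An exact permutation test on the levels, whose smallest possible p with 4 against 4 grafts is 0.0286 (two-sided), reached that value for Trem2 and Mrc1 in both genotypes and for Apoe in Rnls mut grafts. Adjusted over the 32 tests of the family it was 0.152. In WT grafts, 2 of the 8 genes had every day 17 graft above every day 10 graft, against 18.3% of all genes tested. In Rnls mut grafts, 3 of the 8 did, against 24.6%. The day 17 libraries also had a lower sum of the NK cell marker list among macrophages, 9.01 to 26.6 CPM against 30.3 to 54.5 at day 10. Pooled over all grafts, Klrk1 alone made up 23.6 of the 25.1 CPM of this list. The part of these transcripts in the results was not tested.

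The second question was whether macrophages of Rnls mut grafts differed from those of WT grafts. None of the 8 genes passed the edgeR test at either day, DESeq2 called none of them either, and Cd163 at day 10 was the only 1 with an unadjusted p under 0.05. At day 10, 3 of 9331 genes were called (0.0322%), all lower in Rnls mut grafts. They were Gm10076, mt-Atp8 and Cmss1, named after their values were seen (log2 fold changes of -0.94, -0.93 and -0.93), while 659 genes had an unadjusted p under 0.05. At day 17 no gene was called (0.0%) by edgeR, 573 had an unadjusted p under 0.05, and DESeq2 called 2.

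The log2 fold changes of Rnls mut over WT at day 10 were -0.33 for C1qa, -0.34 for C1qb, -0.36 for C1qc, -0.80 for Apoe, 0.06 for Trem2, -0.59 for Mrc1 and -0.62 for Folr2, with edgeR adjusted p from 0.772 to 0.999. Cd163 had the largest difference of the 8, with 24.5 ± 6.45 (SD, n = 4) CPM in WT and 5.18 ± 5.72 in Rnls mut grafts. All 4 WT grafts lay above all 4 Rnls mut grafts, which 2.31% of all genes tested showed in that direction. For Cd163, the log2 fold change was -2.17 ± 0.91 (SE, edgeR adjusted p = 0.666, approximate 95% interval -3.99 to -0.34). The exact permutation test gave 0.0286, the smallest p it allows, and 0.152 adjusted over the family. The difference in Cd163 did not hold up in the test across all genes.

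At day 17, the log2 fold changes were 0.17 for C1qa, 0.15 for C1qb, 0.25 for C1qc, 0.28 for Apoe, 0.37 for Trem2, 0.10 for Mrc1, -0.23 for Folr2 and -0.57 for Cd163. The smallest edgeR adjusted p was 0.929. For Mrc1 the means were close, at 1098 ± 312 in WT and 1162 ± 87.0 CPM in Rnls mut grafts (SD, n = 4), whereas Apoe was at 4970 ± 3530 and 5918 ± 3366. The approximate 95% interval of the log2 fold change ran from -0.57 to 0.77 for Mrc1 and from -1.06 to 1.62 for Apoe. The change with time was not found to differ between the genotypes for any of the 8 genes. The difference of the log2 fold changes, Rnls mut minus WT, was 1.08 for Apoe, 0.69 for Mrc1, 0.32 for Trem2, 0.38 for Folr2, 1.60 ± 1.13 for Cd163 and 0.48 to 0.62 for the C1q genes (edgeR adjusted p from 0.677 to 0.920). Over all genes, 3 passed this test (0.0322%).

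**Figure D3:**
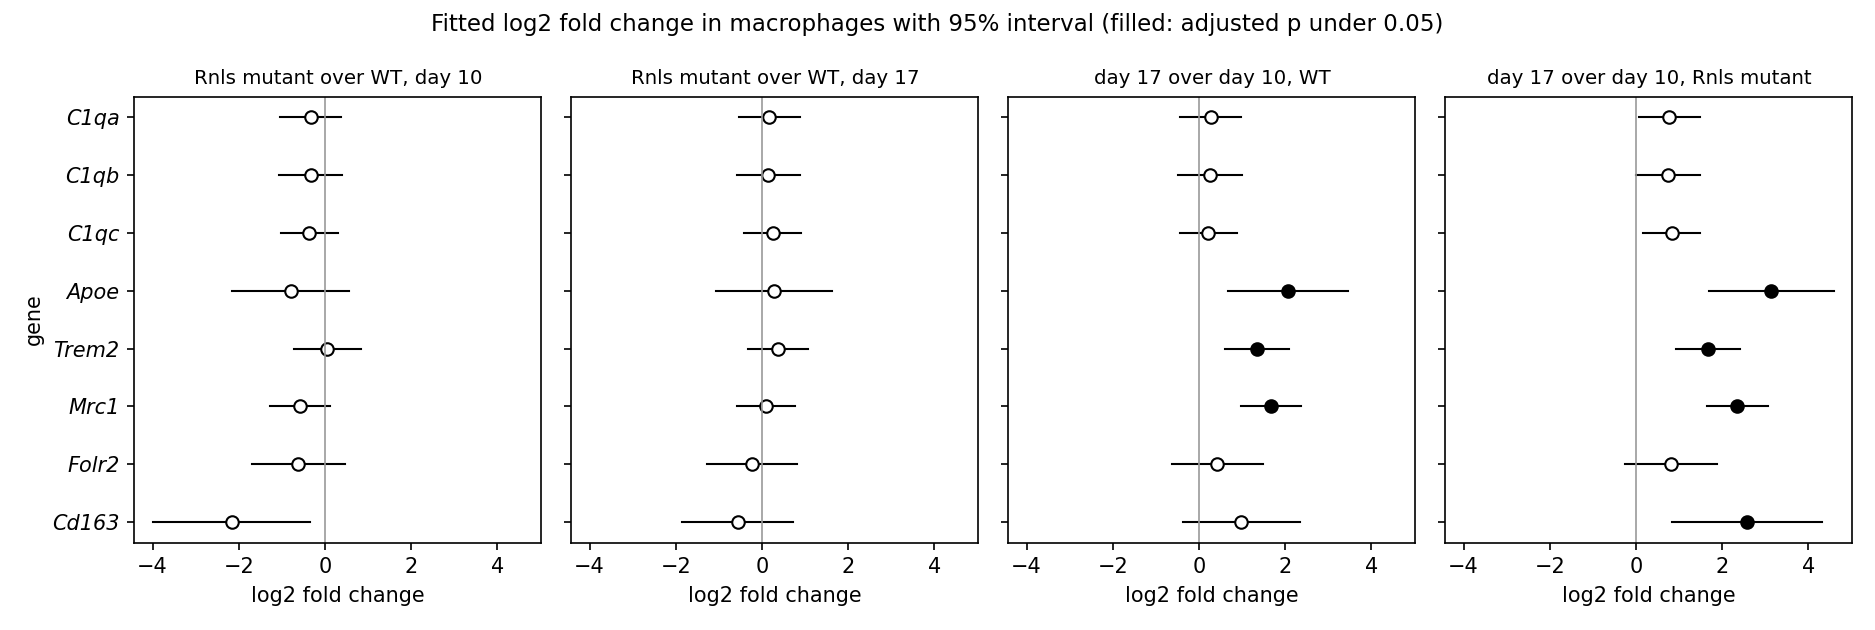
Log2 fold changes of the 8 genes in macrophages with approximate 95% intervals from the SE of the edgeR fit. They are shown for Rnls mut over WT at each day and for day 17 over day 10 within each genotype. Filled points passed an adjusted p of 0.05. The filled points are Apoe, Trem2 and Mrc1 in WT and Apoe, Trem2, Mrc1 and Cd163 in Rnls mut grafts, all between days.

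The authors divided the macrophages into 6 clusters, numbered 2, 4, 5, 10, 12 and 13, and these were drawn from different days. Day 17 gave 95.6% of the cells of cluster 2, 94.4% of cluster 10, 89.3% of cluster 5 and 87.3% of cluster 12, but 16.8% of cluster 4 and 7.62% of cluster 13. Levels are therefore given within a day, pooled over its 8 grafts, for clusters with at least 50 cells at that day. As the clusters were made from these genes among others, the levels are a description.

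At day 17, C1qa was at 4222 CPM in cluster 2, 2076 in cluster 10, 1382 in cluster 5, 752 in cluster 12 and 566 in cluster 4. At day 10 it was at 5339 in cluster 13, 4396 in cluster 2, 653 in cluster 12, 631 in cluster 5 and 338 in cluster 4. The C1q chains kept their ratio over both days, C1qa making up 44.0 to 46.0% of C1q UMIs in 5 clusters and 39.6% in cluster 12. Apoe at day 17 was at 8146 in cluster 2, 3820 in cluster 10, 1443 in cluster 4, 950 in cluster 12 and 918 in cluster 5. At day 10 its level was 7041 in cluster 2 and 2302 in cluster 13, against 73.2 to 152 in clusters 4, 5 and 12.

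Mrc1 at day 17 was at 1691 CPM in cluster 2, 1106 in cluster 10, 792 in cluster 5, 742 in cluster 12 and 156 in cluster 4. Its day 10 level was 758 in cluster 13, 611 in cluster 2 and 37.8 in cluster 4. Trem2 at day 17 was at 264 in cluster 4, 174 to 178 in clusters 2, 5 and 12 and 74.1 in cluster 10. In each of the 3 Rnls mut grafts with enough cells, Trem2 was higher in cluster 4 (237, 602 and 196) than in cluster 2 (116, 284 and 182). So it was in the 2 WT grafts with enough cells (197 and 188 against 107 and 155). Between grafts the ranges of the clusters overlapped. At day 10, Trem2 was at 183 in cluster 2, which is 72 UMIs, 78.1 in cluster 13 and 50.8 in cluster 4. Folr2 was at 388 in cluster 2 and 17.0 in cluster 4 at day 17, and at 560 in cluster 13 and 12.7 in cluster 4 at day 10. Cd163 at day 17 was at 62.5 in cluster 10 and 58.6 in cluster 2, against 4.95 in cluster 5, 0.69 in cluster 12 and 0.44 (1 UMI) in cluster 4. Its day 10 level was 51.9 in cluster 13 and 22.8 (9 UMIs) in cluster 2.

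**Figure D4:**
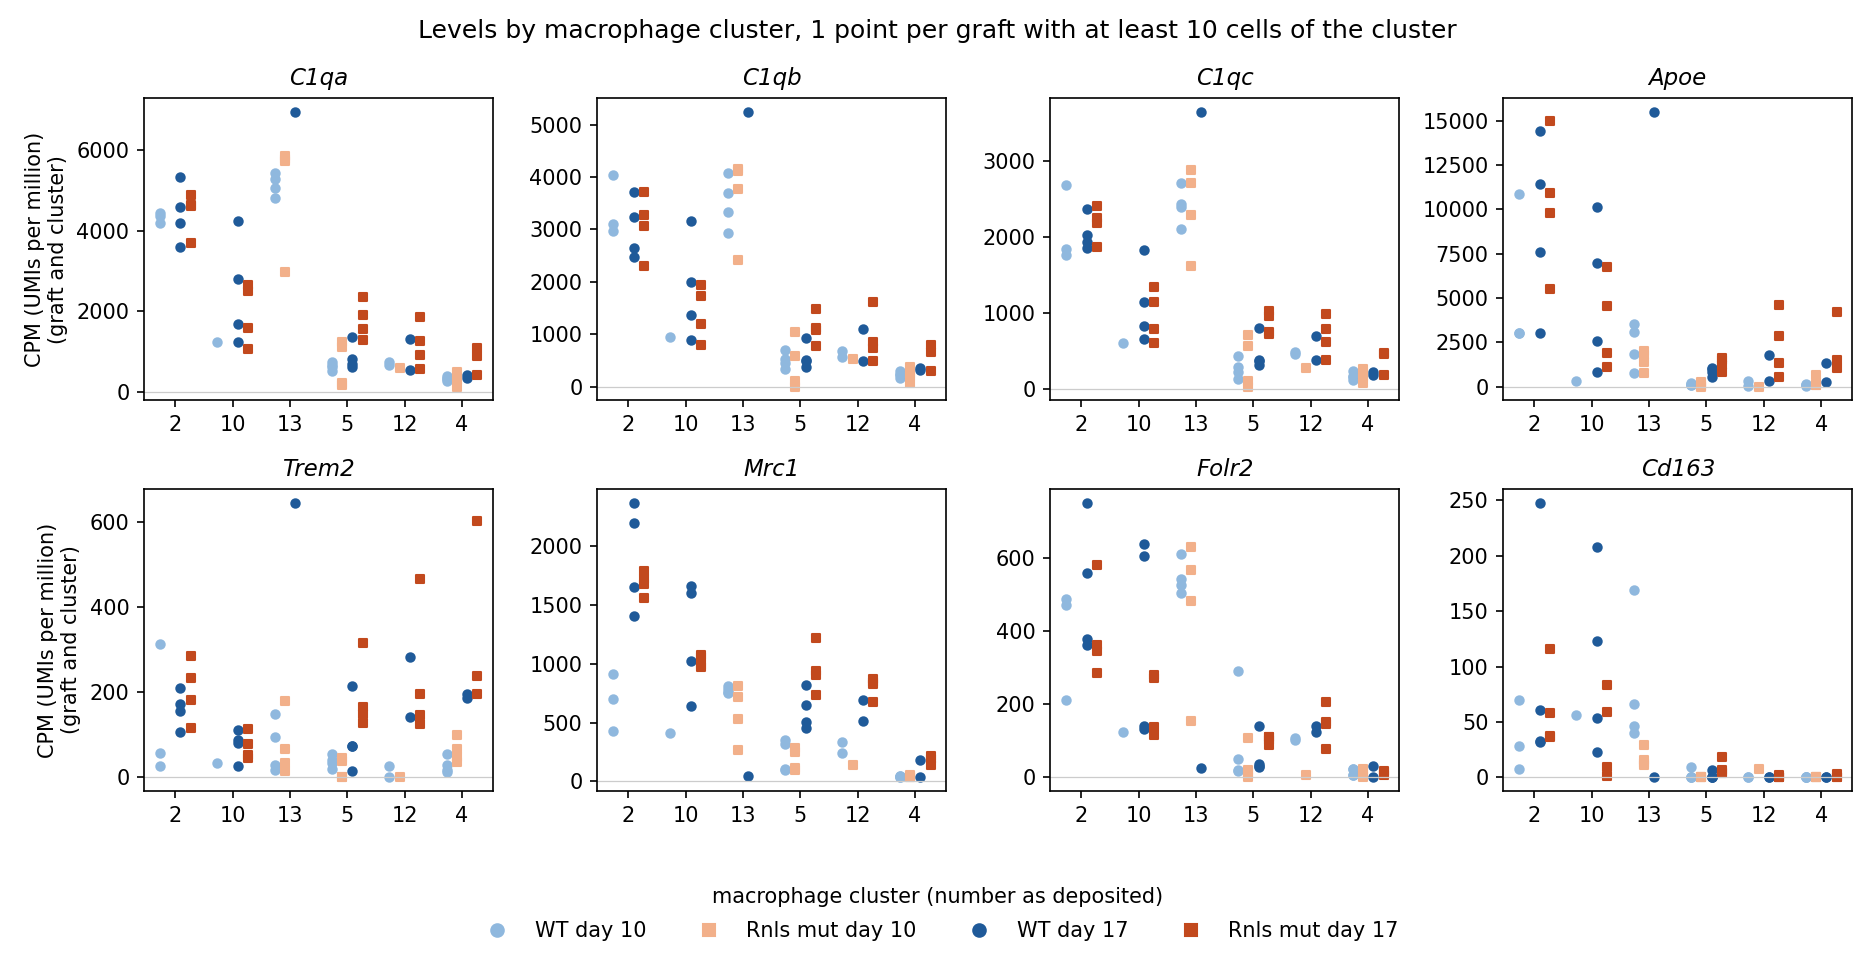
Level of each gene (CPM, linear axes that differ between genes) by macrophage cluster, with 1 point per graft with at least 10 cells of the cluster, coloured by genotype and day. C1q is highest in clusters 2 and 13, and Cd163 is near 0 in clusters 4, 5 and 12.

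Only cluster 5 had enough cells in all 4 groups for the same fit. It was weakly set apart: its top gene, Gm26917, had a log2 ratio of 1.48 over other macrophages. The top genes of the other macrophage clusters had 2.57 to 6.66. Next in cluster 5 came Gm42418, at 17316 CPM against 6865 in other macrophages. Whether cell quality sets cluster 5 apart was not tested. There Mrc1 was at 314, 104, 99.3 and 347 CPM in WT grafts at day 10 and at 507, 650, 823 and 453 at day 17. Those of Rnls mut grafts were 115, 92.3, 248 and 280 and then 738, 905, 940 and 1222, so that the days did not overlap in either genotype. Mrc1 rose by a log2 fold change of 1.40 (edgeR adjusted p = 0.0177) and 2.45 (0.000102). Apoe rose by 2.82 (adjusted p = 0.00093) in WT grafts, from 73.8, 145, 182 and 88.8 to 990, 1067, 528 and 810. Apoe in Rnls mut grafts rose by 4.08 (adjusted p = 2.54e-05), from 12.8, 15.4, 0 and 280 to 819, 1612, 1227 and 1490. Within this cluster the WT graft 3 at day 17 no longer fell into the range of day 10. In Rnls mut grafts, Trem2 (3.08, adjusted p = 0.00543), C1qa (1.48, 0.0158) and C1qc (1.44, 0.0452) also rose, while C1qb (1.48, 0.0663) did not pass. The day 10 values rested on 10 to 36 cells and 0 to 18 Apoe UMIs per graft. Of 7 of the genes tested (all but Cd163), 2 were called higher in WT grafts against 0.754% of all genes in this cluster, and 5 in Rnls mut grafts against 5.08%.

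In 2 further clusters only 1 genotype had enough cells at both days. A fit to the groups with enough cells, 1 of them of the other genotype, was added after the data were seen. In cluster 4 of Rnls mut grafts, 6 of 7 genes tested were higher at day 17, against 5.04% of all genes. They were Mrc1 (2.23, edgeR adjusted p = 3.60e-05), Trem2 (2.45, 0.00160), Apoe (3.18, 0.00419), C1qa (1.32, 0.0244), C1qb (1.41, 0.0323) and C1qc (1.11, 0.0485). Mrc1 went from 34.6, 41.3, 57.3 and 32.1 CPM to 136, 218 and 193 in the 3 grafts with enough cells. Apoe went from 113, 642, 152 and 89.7 to 1040, 4197 and 1491. C1qa overlapped between the days, with 488, 297, 354 and 124 and then 407, 878 and 1088. Graft 4 at day 17 was left out with 9 cells. Its Mrc1 (20.8, 1 UMI) lay below day 10 and its C1qa (146, 7 UMIs) within it. Its Trem2 (354) and Apoe (2314) lay above. In cluster 2 of WT grafts only Mrc1 passed (1.39, adjusted p = 0.00378), from 425, 697 and 918 to 2201, 2374, 1412 and 1659, against 1.04% of all genes called higher. C1qa in cluster 2 had a log2 fold change of -0.07.

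Outside macrophages the same fit was made for monocytes, dendritic cells and all CD45+ cells together. In monocytes, Apoe was the only 1 of 7 genes tested that passed, with a log2 fold change between days of 2.49 ± 0.57 (SE; edgeR adjusted p = 0.0211) in WT and 4.02 ± 0.59 (0.000601) in Rnls mut grafts. All genes called higher were 2.06% and 1.27% of those tested in monocytes. In dendritic cells, Apoe (2.03, edgeR adjusted p = 0.0178, and 4.96, 2.96e-05) passed and Mrc1 did not, against 5.39% and 7.53% called higher. In all CD45+ cells, where a higher level of a gene per macrophage and a higher share of macrophages cannot be told apart, 7 of the 8 genes were higher at day 17 in WT grafts (Folr2 had an adjusted p of 0.0646) and all 8 in Rnls mut grafts. All genes called higher there were 20.5% and 24.3%. The largest log2 fold changes in Rnls mut grafts were 4.72 for Apoe, 4.29 for Cd163 and 3.67 for Mrc1. No gene of the 8 passed the test between genotypes in any of these cells or in the clusters.

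Apoe counts were also found in lymphocytes, which are not known for making it, and their levels are given without a test. In CD4 T cells Apoe was at 9.27, 10.6, 12.7 and 4.39 CPM in WT grafts at day 10 and at 42.9, 66.0, 50.0 and 33.7 at day 17. Rnls mut grafts had 1.18, 4.14, 2.01 and 2.90 at day 10 and 170, 207, 162 and 205 at day 17. Every graft at day 17 was above every graft at day 10. The grafts of a library were close to each other here, whereas their macrophages spread from 1088 to 8675 in WT grafts and from 2147 to 10334 in Rnls mut grafts at day 17. CD8 T cells had means of 12.3, 2.5, 64.7 and 220 and NK cells of 9.4, 7.7, 33.9 and 212 in WT and Rnls mut grafts at day 10 and WT and Rnls mut grafts at day 17. C1qa in CD4 T cells had means of 17.1, 10.7, 31.6 and 106 in the same order.

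In monocytes, Apoe was at 332, 272, 166 and 730 CPM in Rnls mut grafts at day 17, beside 170, 207, 162 and 205 in CD4 T cells of the same grafts, and at 43.9, 12.4, 2.72 and 15.1 at day 10. The WT grafts had 38.2, 22.3, 15.5 and 25.0 at day 10 and 291, 32.2 and 71.5 at day 17 in the 3 grafts with at least 10 monocytes. The part of the Apoe and C1q levels shared by all cells of a library was not tested, be it for monocytes, dendritic cells or macrophage clusters. Over all macrophages of a graft, the Apoe level was at least 12.6 times that in CD4 T cells of the same graft. This ratio does not cover single macrophage clusters. In cluster 5 of Rnls mut grafts at day 17, for one, Apoe was at 819, 1612, 1227 and 1490 CPM.

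**Figure D5:**
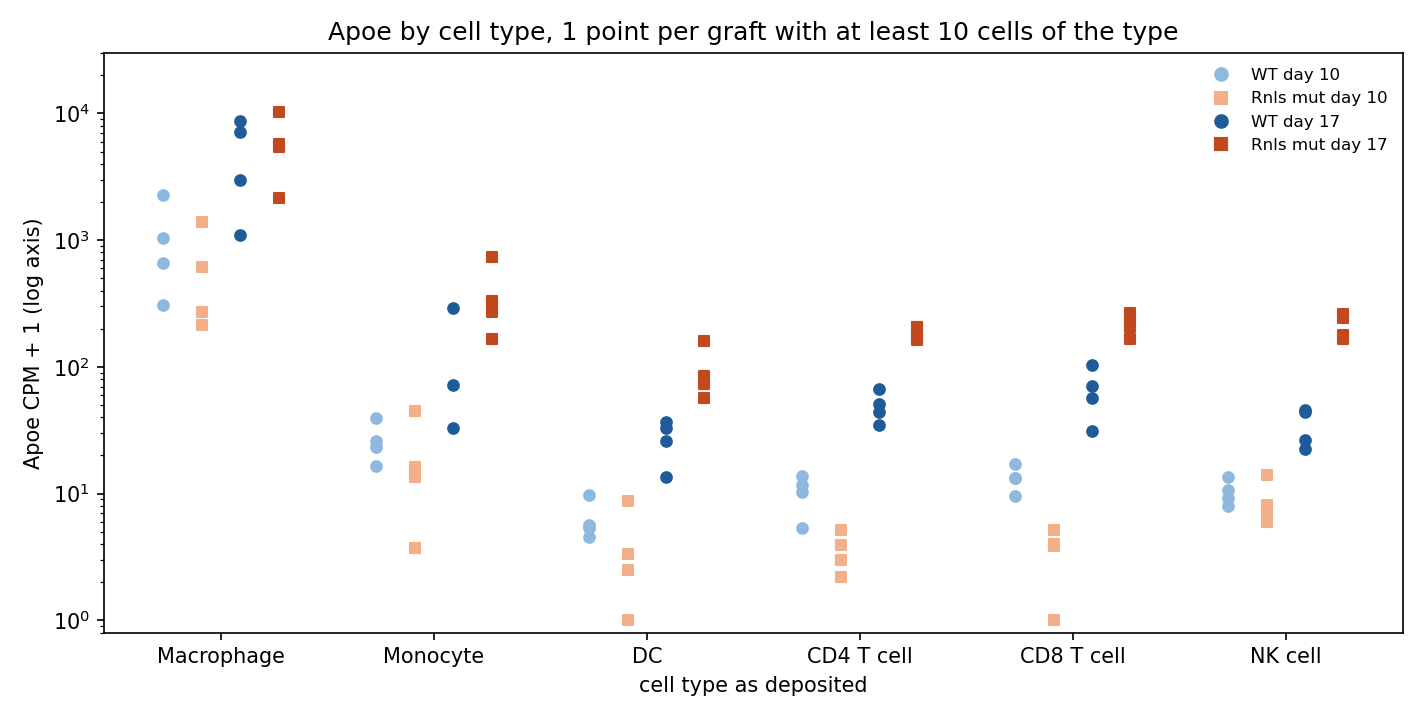
Apoe level (CPM + 1, log axis) per graft with at least 10 cells in macrophages, monocytes, dendritic cells (DC), CD4 T cells, CD8 T cells and NK cells, by genotype and day. In CD4 T cells the 4 Rnls mut grafts at day 17 sit between 162 and 207 CPM, all above the other groups.

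The genes were set beside 4 lists of related genes, which leave out the 8 genes themselves. Of 20 tested genes of complement and its receptors, 3 rose and 2 fell between days in WT grafts, where 12.0% of all genes were called higher and 13.1% lower. The C1q-binding receptor gene Cd93 (log2 fold change 0.98) and the C5a receptor gene C5ar1 (0.99) were higher and the alternative pathway gene Cfb (-1.01) was lower (edgeR adjusted p under 0.05 for each). In Rnls mut grafts, where 20.7% of all genes were called higher and 21.4% lower, 7 rose and 3 fell, among them Cd93 (1.51), the C3a receptor gene C3ar1 (0.99) and Calr (-0.71).

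Of 27 tested genes of Trem2 signalling and lipid handling, 5 rose and 1 fell in WT grafts (12.0% and 13.1% of all genes). The cholesterol exporter Abca1 (1.09), the lysosomal lipase Lipa (0.79) and the fatty acid receptor Cd36 (1.43) rose, and Nr1h3, the LXR alpha gene, fell (-0.87). Of these, 5 rose and 6 fell in Rnls mut grafts (20.7% and 21.4% of all genes), with Abca1 at 1.51, Nr1h3 at -1.37, the tetraspanin Cd9 at -1.70 and the cholesterol 25-hydroxylase Ch25h at -2.83.

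Of 28 tested genes of resident macrophages, 5 rose and none fell in WT grafts, against 12.0% of all genes higher and 13.1% lower. F13a1 (1.55), the growth factors Igf1 (1.50) and Gas6 (1.87) and the selenium carrier Selenop (1.35) were among them. In Rnls mut grafts 9 rose and 1 fell, against 20.7% and 21.4% of all genes, with Selenop at 2.27, the transcription factor Maf at 1.17, F13a1 at 1.77 and Igf1 at 1.78, while Spic, a factor of iron-recycling macrophages, was lower (-1.96). The median log2 fold change of this list was 0.79 and 0.90, against 0.03 and 0.02 over all genes tested.

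Of 30 tested inflammatory and interferon-induced genes, 1 rose and 13 fell in WT grafts, and 2 rose and 21 fell in Rnls mut grafts. All genes called higher and lower were 12.0% and 13.1% in WT and 20.7% and 21.4% in Rnls mut grafts. The chemokines Cxcl10 (-2.37 and -2.66) and Cxcl9 (-1.89 and -2.64) and the guanylate-binding protein Gbp5 (-1.24 and -1.57) fell in both. Cd274, which codes for PD-L1, fell in WT grafts (-1.12) and was named there by its rank of p. That naming says nothing about its change in Rnls mut grafts. The medians were -0.67 and -1.49. Between genotypes, and for the difference of the changes with time, edgeR called none of these genes in macrophages at an adjusted p of 0.05. At an unadjusted p under 0.05 these were 9 of 104 genes at day 10, 8 at day 17 and 14 for the difference, against 659, 573 and 873 of all 9331 genes, and DESeq2 called 0 in each. The median over genes of Rnls mut over WT at day 17 was -0.04 for complement, 0.01 for Trem2 and lipid handling, -0.29 for resident and -0.38 for inflammatory genes. At day 10 the medians were -0.04, 0.09, -0.41 and 0.22 in the same order.

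The genes with the most similar level across the table were found over 26 clusters of at least 50 cells of all types, with Pearson's r of log2 CPM among 6303 genes. The points share libraries and the divide between macrophages and other cells, so the r is a description. C4b, the complement C4 gene, was closest to all 3 C1q genes (r = 0.978 for C1qa, 0.981 for C1qb and 0.986 for C1qc), followed by Npl (0.968, 0.970 and 0.976) and by Selenop (0.967 and 0.965) or Stab1 (0.971). Apoe was closest to the chemokine genes Pf4 (0.966) and Ccl8 (0.965) and to Selenop (0.953). For Trem2 these were Gm10134 (0.980), the phagocytic receptor gene Mertk (0.977) and Sash1 (0.973), and for Mrc1 Abca9 (0.987), Rab11fip5 (0.984) and Rab3il1 (0.984). Folr2 was closest to F13a1 (0.973), Calml4 (0.971) and Stard8 (0.969), and Cd163 to the lectin gene Cd209f (0.969), Chp2 (0.957) and the complement gene C6 (0.957).

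Among the 8 genes themselves, r was 0.997 between C1qa and C1qb, 0.787 between C1qa and Cd163 and 0.622 between Trem2 and Cd163. In macrophages, Abca9, closest to Mrc1, rose between days as Mrc1 did (log2 fold change 1.31 in WT and 2.75 in Rnls mut grafts). Ccl8, close to Apoe across clusters, had -0.25 and 0.57 and did not pass the test in either.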

How the data were processed

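Living CD45+ cells of 16 grafts were measured by droplet-based single-cell RNA sequencing (10x 3' v3.1) with hashtag antibodies. The values the authors deposited are raw counts of UMIs, with the graft, cluster and cell type of each cell. The submitters' processing notes name Cell Ranger, with its version not given in the sources used here, and the build mm10. No cell or gene was left out of the deposited counts, and no doublet caller was run, since 229 macrophages (3.19%) with a T cell receptor or CD3 UMI were left out as an alternative instead.

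UMIs were summed per graft over the cells of a type or cluster, for grafts with at least 10 such cells, and divided by their total to give CPM. The test was edgeR's quasi-likelihood test (edgeR 4.0.16 with R 4.3.3, after filterByExpr and TMM scaling), with genotype and day as 4 groups in 1 fit, and Benjamini-Hochberg adjustment over all genes at 0.05. The contrasts share groups. Clusters and cell types needed 3 grafts per group. Single levels were compared by two-sided exact permutation tests in Python 3.11.15 (SciPy 1.17.1, NumPy 2.4.6, pandas 2.3.3). The replicate was the graft. WT and Rnls mut grafts came from opposite flanks of the same mice, but no label ties a graft to a mouse, so p-values treat grafts as independent. The fit was tested on simulated data. Intervals of log2 fold changes were set from the SE and are approximate. Intervals of shares cover counting error only.

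The 8 genes and all lists were chosen with earlier results of these data known. Named genes were the 8, for each the 3 genes with the highest Pearson r of log2(CPM + 10) over clusters of at least 50 cells, among genes with at least 50 CPM in 1 cluster, and at most 4 called genes with the smallest p per list and contrast. Of the genes this rule names, 2 are not reported here. Besides complement, Trem2 and lipid handling, resident and inflammatory genes, marker lists of 8 cell types were used to check the deposited types. Between days, macrophage markers rose for 2 and fell for 1 of 10 in WT and rose for 5 and fell for 2 in Rnls mut grafts. In both genotypes the 1 NK cell marker tested fell, and dendritic cell markers fell for 2 of 3. Stromal markers rose for 1 and fell for 1 of 3 in Rnls mut grafts. B cell and granulocyte markers had no call, and T and beta cell markers were too low in count to be tested. Alternatives were DESeq2 1.42.0, other scaling, no filter on low counts, other minimum numbers of cells, each contrast on its own 2 groups, a block for the hashtag number and each graft left out in turn. Gene positions are those of GENCODE on GRCm38, and promoter windows are from RefSeq.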

Additional observations from a re-analysis of the deposited data

Results flagged for a closer look

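The change with time differed between Rnls mut and WT grafts for 3 genes of 9331 in macrophages by edgeR's test of that difference, none of them among the 8 genes described. The log2 fold change between days was higher in Rnls mut than in WT grafts by 1.46 for Gm10076 (adjusted p = 0.000644), by 1.29 for Cmss1 (0.0303) and by 0.90 for Nsa2 (0.0303). Without the adjustment, 873 genes had a p under 0.05. In the 32 groups of 4 grafts formed by the 8 genes, no single graft stood apart from the other 3 in the macrophage level by Dixon's test at its 95% critical value.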

How the results depend on the processing

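In macrophages, the higher level of Mrc1 and Trem2 at day 17 passed the test in 14 of 14 alternatives in both genotypes, and that of Apoe in 14 of 14 in Rnls mut and 9 of 14 in WT grafts (log2 fold change 1.64 to 2.71, adjusted p 0.00320 to 0.105). Cd163 in Rnls mut grafts passed in 10 of 14 (2.09 to 3.99, adjusted p 0.00142 to 0.0923). Minimums of 1 and 50 cells are not counted here, since every graft held at least 107 macrophages and no value could change. With no filter on low counts, 7 of the 8 genes passed between days in Rnls mut grafts instead of 4, the C1q genes among them, where 3725 of 20307 genes were called, 1845 of them higher. Library size alone gave 5, where 2462 of 9331 genes were called higher. Leaving out single grafts gave 3 to 8 (2 to 3 in WT grafts). In these fits, 1541 to 1789 of 9510 to 9596 genes were called higher in Rnls mut grafts. For WT grafts it was 800 to 1093 of 9490 to 9611. The 8 came without graft 2 of the Rnls mut grafts at day 10, with 1789 of 9525 genes called higher. Between genotypes none passed in any alternative.

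Counts over all genes moved more. For genotype at day 10, where 3 genes were called, DESeq2 called 22, the fit without a filter 12, the fit to its own 2 groups 1 and the fit with the hashtag number as a block 0, with 1 to 3 when a graft was left out. At day 17 DESeq2 called 2 instead of 0, and leaving out a graft gave 0. For the difference of the changes with time, 3 genes became 48 with DESeq2, 9 without the filter and 1 with the replicate block, and 1 to 9 without single grafts. Between days, 3194 to 3660 genes were called in Rnls mut and 1744 to 2351 in WT grafts without single grafts. The causes were not tested.

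No label ties a hashtag number to a mouse, and same-numbered grafts did not deviate together throughout (correlations 0.465, -0.338, -0.262 and 0.056 at day 10 and -0.308, 0.178, 0.449 and -0.231 at day 17), so whether the numbers follow the mice is not known.

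Fold changes that changed sign were all without a call, and did so when single grafts were left out. For Rnls mut over WT these were Trem2 at day 10 (-0.22 to 0.42) and, at day 17, C1qa (-0.014 to 0.40), C1qb (-0.085 to 0.38), Apoe (-0.15 to 0.70), Mrc1 (-0.015 to 0.26), Folr2 (-0.57 to 0.10) and Cd163 (-1.02 to 0.45). Between days they were Cd163 in WT grafts (-0.042 to 1.43), and for the difference between genotypes Trem2 (-0.049 to 0.59).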
